A study of Mus musculus with 64 samples.

Results

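The genes described here encode the nuclear subunits of respiratory complexes III, IV and V and cytochrome c. The rule is one of name: protein-coding genes whose mouse symbol begins with Uqcr, Cox4, Cox5, Cox6, Cox7, Cox8 or Atp5, together with Cyc1 and Cycs. In the annotation 46 genes met this rule, and 45 of them were among the 52636 genes of the count table. Complex III contributed 9 genes including Cyc1, complex IV 18, complex V 17, and cytochrome c is encoded by Cycs. A filter on low counts kept 43 of the 45, and the testis isoforms Cox7b2 and Cox8c fell below it. The naming rule also takes in Atp5s, which encodes a factor associated with ATP synthase rather than a core subunit, and it leaves out Atpif1, the inhibitor of ATP synthase.

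Complex III (the cytochrome bc1 complex) passes electrons from ubiquinol to cytochrome c, and complex IV (cytochrome c oxidase) passes them on to oxygen. Both pump protons, and complex V (ATP synthase) uses the proton gradient to make ATP. In brown adipose tissue (BAT) the uncoupling protein UCP1 lets protons return without ATP synthesis. This tissue is known for abundant respiratory chain and little ATP synthase, which in rodents has been tied to the supply of subunit c from Atp5g1. Several complex IV subunits have a ubiquitous form and a form typical of heart and skeletal muscle that brown fat also uses, such as Cox7a1 and Cox8b.

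The libraries were made from total RNA of 2 fat depots, BAT and epididymal fat (eWAT, a white adipose tissue), taken from male mice aged 2 to 4 months. FANKO (fat-specific Nampt knockout) mice carried the NamptTM1Jtree allele, in which exon 3 of Nampt is flanked by loxP sites, and the Adiponectin-Cre transgene, which is active in adipocytes and not in the other cells of the depots. WT mice were littermates of that cross without Cre, so the groups share the line but not the deletion. Nampt encodes the rate-limiting enzyme of NAD salvage. Each depot and genotype was sampled at zeitgeber time (ZT) 6, 10, 18 and 22, where ZT 0 is lights on, with 4 samples per group and 64 in all. Each depot and genotype therefore held 16 samples. The labels do not say that samples of a group came from different animals, so p values measure only the spread between these samples. They also do not say whether BAT and eWAT samples came from the same animals. Tests between depots treat all samples as separate.

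Total counts per sample ranged from 6117343 to 30544847. Nampt counts checked the labels, over all exons and so including transcripts that lack exon 3: in BAT the 16 WT samples lay between 479 and 1454 CPM (counts per 1000000 of the library after TMM scaling) and the 16 FANKO samples between 109 and 186 CPM. In eWAT the ranges were 112 to 310 CPM and 101 to 131 CPM, which overlap. The log2 fold changes were -2.31 ± 0.07 (SE) in BAT and -0.50 ± 0.07 in eWAT. Every test across genes below is edgeR's quasi-likelihood test on 20249 genes, with p values adjusted over all of them by the Benjamini-Hochberg method and a threshold of 0.01. The 9 brown adipocyte markers summed to between 1470 and 10375 CPM in BAT and between 64.3 and 206 CPM in eWAT, so the depot labels and the markers did not conflict. Of these 9, 5 fell in FANKO BAT, Ucp1 with a log2 fold change of -1.80 ± 0.23, and 3 rose and 2 fell in FANKO eWAT. Some libraries held markers of other tissues. The 12 skeletal muscle markers summed to over 20 CPM in 9 of 16 WT and 5 of 16 FANKO BAT libraries, and in 9 of 16 WT and 16 of 16 FANKO eWAT libraries. The 6 germ cell markers did so in 3 of 16 WT and 2 of 16 FANKO eWAT libraries. The 10 markers of epididymis and vas deferens reached at most 45.5 CPM in eWAT. Counts of genes were also made without the 9 WT and 5 FANKO BAT libraries with muscle markers and the 5 eWAT libraries with germ cell markers. The same could not be done for muscle markers in eWAT, where no FANKO library would remain.

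Promoter sequences are shown for 5 genes described below: Cycs and the ubiquitous Cox7a2, the muscle-type Cox7a1, and the subunit c genes Atp5g1 and Atp5g3. They are RefSeq sequences of build GRCm38.p6, 5′ to 3′ on the gene's strand, taken from the 250 bases before the RefSeq start and ending before the annotated gene wherever it begins within them. Capitals mark matches to the motifs searched. The stretches are chr6:50566570-50566819 (minus strand), chr9:79759879-79760103 (minus), chr7:30183921-30184143 (plus), chr11:96075671-96075881 (minus) and chr2:73911327-73911576 (minus).
Cycs: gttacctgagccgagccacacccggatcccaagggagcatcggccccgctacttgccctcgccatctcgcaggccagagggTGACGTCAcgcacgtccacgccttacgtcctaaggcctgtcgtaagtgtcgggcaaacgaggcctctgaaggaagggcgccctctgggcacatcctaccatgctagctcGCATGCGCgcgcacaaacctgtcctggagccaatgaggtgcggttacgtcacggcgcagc
Cox7a2: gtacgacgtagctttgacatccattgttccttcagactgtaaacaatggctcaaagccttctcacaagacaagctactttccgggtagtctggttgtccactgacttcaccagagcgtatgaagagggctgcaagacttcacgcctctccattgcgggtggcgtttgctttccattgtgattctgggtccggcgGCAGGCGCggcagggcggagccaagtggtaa
Cox7a1: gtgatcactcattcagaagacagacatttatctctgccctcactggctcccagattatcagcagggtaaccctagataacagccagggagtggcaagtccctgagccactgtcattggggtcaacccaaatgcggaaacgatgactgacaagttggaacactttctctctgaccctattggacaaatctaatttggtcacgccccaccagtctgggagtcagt
Atp5g1: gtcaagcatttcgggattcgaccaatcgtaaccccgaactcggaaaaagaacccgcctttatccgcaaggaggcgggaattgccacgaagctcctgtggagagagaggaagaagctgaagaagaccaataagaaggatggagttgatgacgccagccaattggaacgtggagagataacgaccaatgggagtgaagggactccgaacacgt
Atp5g3: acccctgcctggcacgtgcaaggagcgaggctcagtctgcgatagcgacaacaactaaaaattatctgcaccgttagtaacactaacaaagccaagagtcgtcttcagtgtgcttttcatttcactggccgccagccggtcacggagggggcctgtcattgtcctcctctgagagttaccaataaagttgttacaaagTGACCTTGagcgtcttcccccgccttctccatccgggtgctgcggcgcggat

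The motifs were searched on both strands in windows of 300 bases (250 before and 50 after the start), which RefSeq gave for 34 of the 45 genes. The NRF1 core GCANGCGC was found in 12 of the 34 windows (35.3%) and in 9.61% of all 32851 promoters of the same length. The ETS core CCGGAAGT bound by GABPA was found in 4 windows (11.8% against 3.89%), the ERR response element CAAGGTCA in 2 (5.88% against 1.56%), the cAMP response element TGACGTCA in 2 (5.88% against 1.79%) and the YY1 core AAGATGGC in 2 (5.88% against 2.75%). In the printed stretches the Cycs promoter holds the NRF1 core and the cAMP response element, that of Cox7a2 the NRF1 core, and that of Atp5g3 the ERR element on the reverse strand. The window of Atp5g3 holds the NRF1 core too, after the start and so outside the printed stretch. The letters of these 5 motifs are not in the windows of Cox7a1, Cox8b and Atp5g1. Such a match describes the sequence and is not evidence of a bound site. Its relation to the genotype differences was not tested.

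FANKO BAT had lower transcript levels of nearly all nuclear subunits of complexes III to V than WT BAT. In bulk tissue, fewer cells of a type and less RNA per cell cannot be told apart. Of the 43 genes tested, 40 fell and 1 rose in FANKO against WT BAT, while 33.9% of all genes tested fell and 33.1% rose. The median log2 fold change was -1.37, a 2.58-fold lower level, and that of all genes was 0.00. All 9 complex III genes fell (median -1.50), as did 15 of 16 complex IV genes (median -1.47), 15 of 17 complex V genes (median -1.18) and Cycs (-1.10 ± 0.08). For 37 genes every FANKO sample lay below every WT sample, as 10% of all genes tested did. The one gene that rose, Atp5g1, was the only one of the 43 with every FANKO sample above every WT sample, as 12.5% of all genes had. The 2 genes without a call were Atp5g3 and Cox6a2.

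In eWAT nearly all of the 43 genes were higher in FANKO mice. Of the 43 genes, 40 rose and 0 fell, while 27.6% of all genes tested rose and 22.8% fell. The unadjusted p was below 0.05 for 41 of the 43, and for 13008 of all 20249 genes. The median log2 fold change was 0.81, a 1.75-fold higher level, and that of all genes was -0.02. The medians were 0.91 for complex III, 0.88 for complex IV and 0.65 for complex V, and Cycs rose by 1.28 ± 0.09. The ranges of 27 genes did not overlap between genotypes, all of them higher in FANKO, as for 4.57% of all genes, and for 0 of the 43 was every FANKO sample lower, as for 1.33%. Cox4i2 (0.26 ± 0.11, adjusted p = 0.0363), Cox6b2 (-0.25 ± 0.18, adjusted p = 0.212) and Atp5s (-0.06 ± 0.07, adjusted p = 0.467) did not pass the test. With libraries scaled by size alone Atp5s was lower in FANKO eWAT (-0.31, adjusted p = 9.45e-04).

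**Figure D1:**
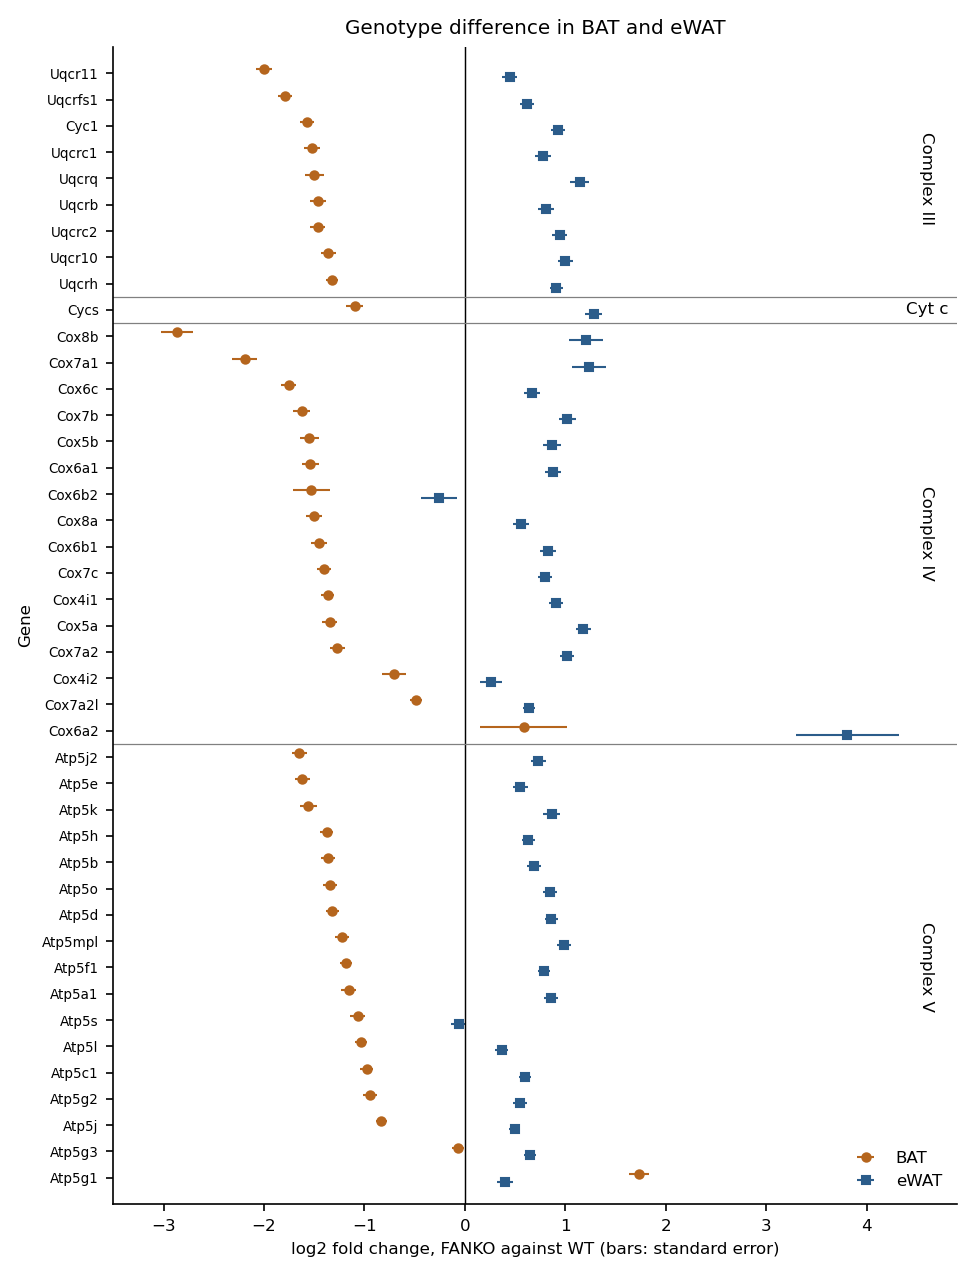
The log2 fold change of FANKO against WT (x axis, with standard error as bars) for each of the 43 genes tested, grouped by complex on the y axis, with circles for BAT and squares for eWAT. Nearly all circles lie left of 0 and nearly all squares right of it, with medians of -1.37 and 0.81, and Atp5g1 and Cox6a2 lie right of 0 in both.

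The genotype difference was thus compared between the depots. The interaction term, which is the difference in BAT minus that in eWAT, passed the test for all 43 genes, while 64.3% of all genes tested passed it. It was negative for 42 genes and positive for Atp5g1, with a median of -2.27. It ran from -4.08 ± 0.23 for Cox8b to 1.34 ± 0.13 for Atp5g1. The complex medians were -2.41 for complex III, -2.35 for complex IV and -2.004 for complex V.

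**Figure D2:**
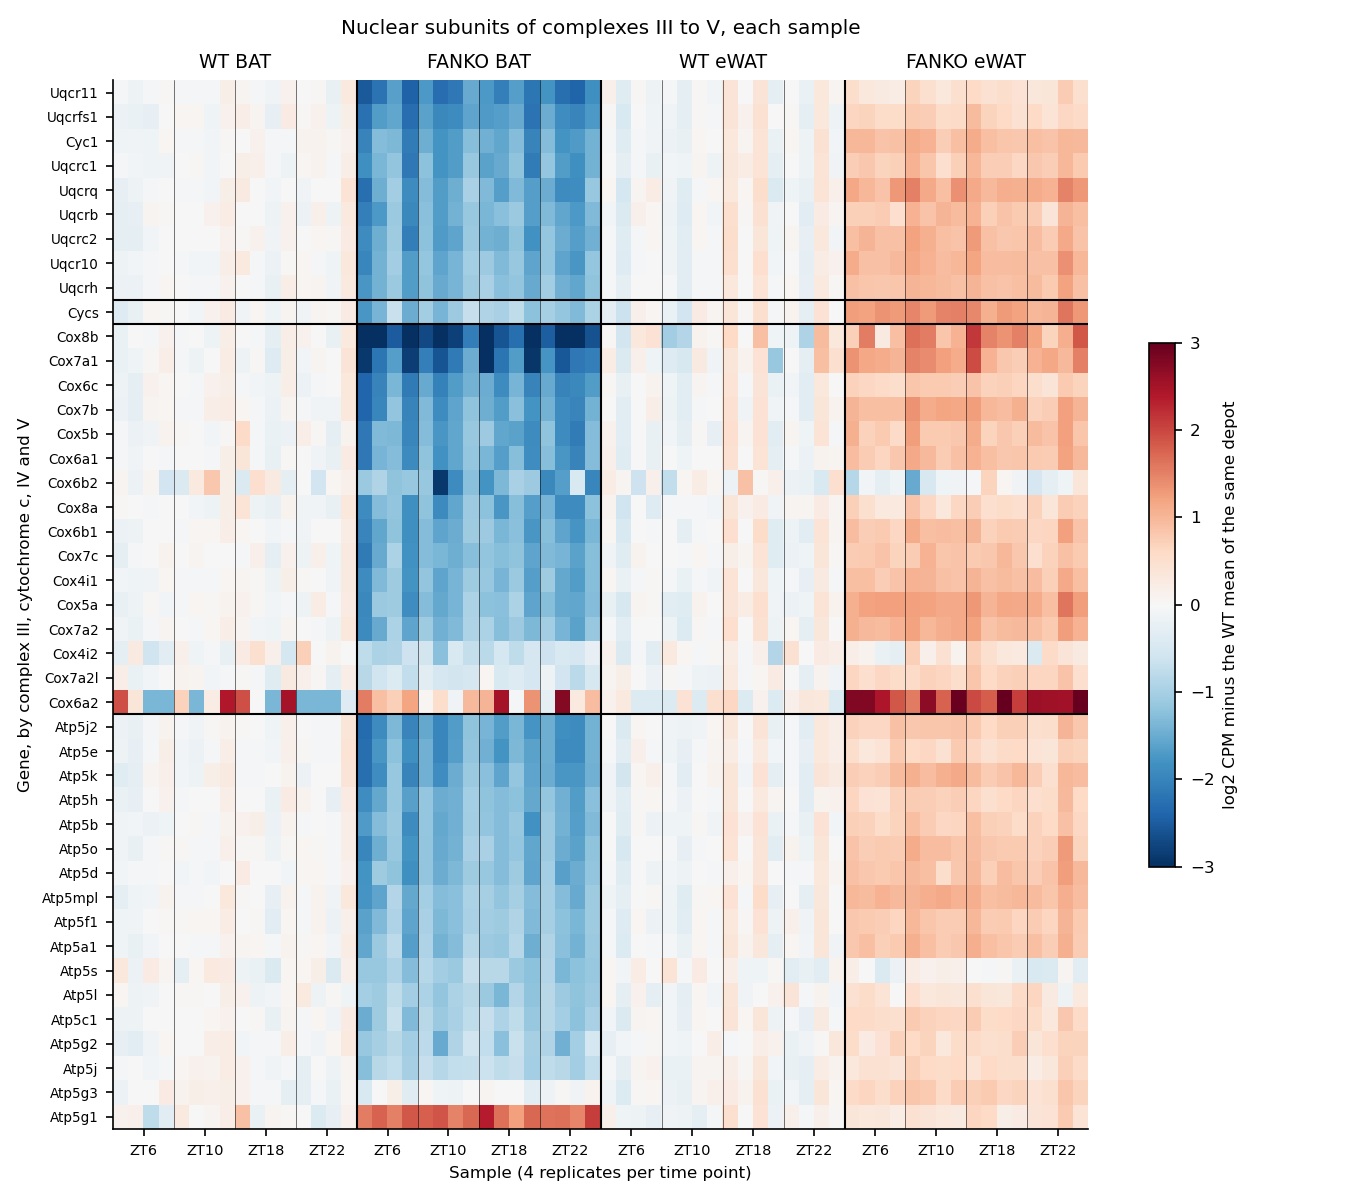
Each row is 1 of the 43 genes and each column 1 of the 64 samples, ordered by depot, genotype and time point, and the colour is log2 CPM minus the WT mean of the same depot, capped at 3 in either direction. FANKO BAT is blue in all rows apart from Atp5g1, Atp5g3 and Cox6a2, and FANKO eWAT is red in nearly all rows at each of the 4 time points.

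Cytochrome c carries electrons from complex III to complex IV and, once released to the cytosol, starts apoptosis. Cycs (ENSMUSG00000063694, chr6:50562563-50566538, minus strand) ranged from 260.5 to 404 CPM (median 347) in WT BAT and from 100.4 to 212 CPM (median 162) in FANKO BAT. Its eWAT levels ranged from 22 to 48.6 CPM (median 35.9) in WT and from 69.6 to 105 CPM (median 83.6) in FANKO mice. The genotypes did not overlap in either depot, and Cycs had the largest rise in eWAT apart from Cox6a2, 2.43-fold (adjusted p = 1.42e-19). In BAT it was 2.14-fold lower in FANKO (adjusted p = 4.28e-18). The annotation names 2 pseudogenes of Cycs, so some of its reads may be shared with them.

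All genes of complex III fell in BAT, with log2 fold changes between -1.998 and -1.33. Cyc1, the cytochrome c1 subunit (ENSMUSG00000022551, chr15:76343523-76346260), ranged from 742 to 894 CPM (median 808) in WT BAT and from 189 to 334 CPM (median 286) in FANKO BAT. In eWAT its levels ranged from 70.7 to 126 CPM (median 88.1) in WT and from 154 to 199.7 CPM (median 171) in FANKO mice, again without overlap. Its log2 fold changes were -1.57 ± 0.07 in BAT and 0.93 ± 0.07 in eWAT (adjusted p = 4.48e-29 and 7.86e-18). Uqcr11, a small accessory subunit, had the largest fall of the complex in BAT (3.99-fold lower) and its smallest rise in eWAT (0.45 ± 0.08), which became 0.20 (adjusted p = 0.0132) and lost its call with libraries scaled by size alone. Uqcrq, another small subunit, rose most in eWAT (1.14 ± 0.09). The catalytic iron-sulfur subunit Uqcrfs1 changed by -1.79 ± 0.07 and 0.62 ± 0.07. The core proteins Uqcrc1 and Uqcrc2 changed by -1.53 ± 0.08 and -1.46 ± 0.08 in BAT.

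Complex IV held the largest changes, and they lay in the muscle-type isoforms. Cox8b (ENSMUSG00000025488, chr7:140898945-140900446) ranged from 715 to 1048 CPM (median 855) in WT BAT and from 58.7 to 206 CPM (median 115) in FANKO BAT, a 7.30-fold lower level (adjusted p = 1.68e-24), the largest fall of the 43 genes. In eWAT it was far lower, 2.79 to 11.4 CPM (median 6.02) in WT and 7.1 to 26.1 CPM (median 14.3) in FANKO mice, and rose by 1.21 ± 0.17, with overlap between the genotypes. Its ubiquitous partner Cox8a ranged from 681 to 1063 CPM (median 779) in WT BAT and from 213 to 373 CPM (median 286) in FANKO BAT. In eWAT Cox8a ranged from 132 to 258 CPM (median 204) in WT and from 242 to 360.1 CPM (median 299) in FANKO mice. The log2 fold changes of Cox8a were -1.50 ± 0.08 in BAT and 0.56 ± 0.08 in eWAT.

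Cox7a1 (ENSMUSG00000074218, chr7:30184144-30186078) followed the same order. It ranged from 329 to 561 CPM (median 434) in WT BAT and from 54.3 to 152 CPM (median 96.5) in FANKO BAT, 4.57-fold lower (adjusted p = 3.01e-24). The eWAT levels ranged from 0.737 to 3.39 CPM (median 1.81) in WT and from 3.03 to 7.1 CPM (median 4.02) in FANKO mice, a rise of 1.24 ± 0.17 with overlap between the genotypes. The ubiquitous Cox7a2 ranged from 461 to 659 CPM (median 519) in WT BAT, from 140.5 to 279 CPM (median 213) in FANKO BAT, from 72.1 to 137 CPM (median 96.3) in WT eWAT and from 164 to 229 CPM (median 195) in FANKO eWAT. The third family member, Cox7a2l, which encodes a factor that joins complexes III and IV into supercomplexes, had the smallest called fall in BAT (-0.49 ± 0.06, adjusted p = 8.64e-11). It ranged from 99 to 154 CPM (median 129.7) in WT BAT and from 72 to 133 CPM (median 90.5) in FANKO BAT, which overlap, and its difference was 0.09 (adjusted p = 0.283) when libraries were scaled by size alone. In eWAT Cox7a2l ranged from 38 to 56.2 CPM (median 45.9) in WT and from 65.7 to 83.4 CPM (median 72.1) in FANKO mice, without overlap.

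**Figure D3:**
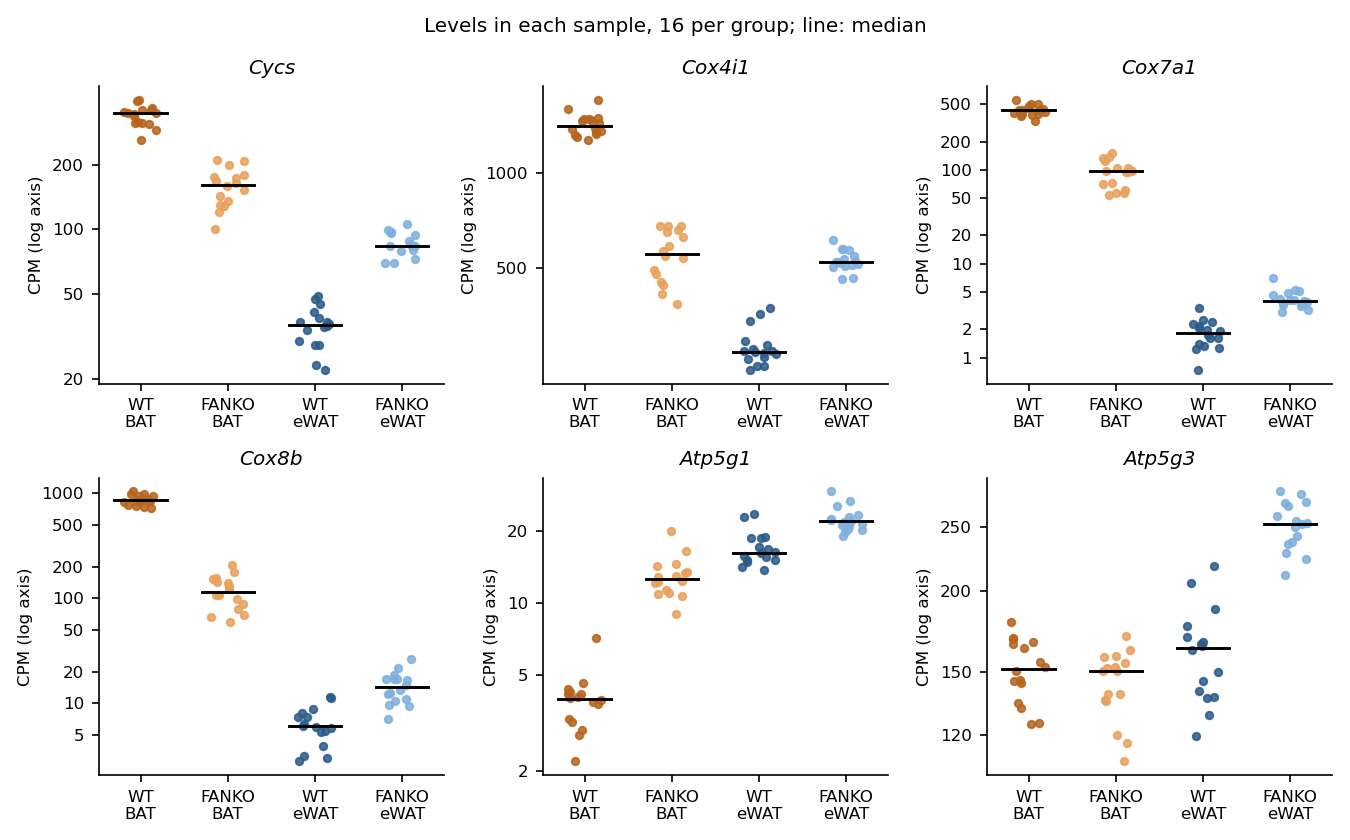
CPM on a log axis in each of the 16 samples of WT BAT, FANKO BAT, WT eWAT and FANKO eWAT for 6 genes, with the median as a line. Cox7a1 and Cox8b have medians of 434 and 855 CPM in WT BAT against 1.81 and 6.02 CPM in WT eWAT, Atp5g1 runs in the reverse order of depots, and Atp5g3 overlaps between WT BAT, FANKO BAT and WT eWAT.

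Ratios of isoforms within a library do not depend on how libraries are scaled, and were compared as log2 ratios of counts (pseudocount 1) between 16 WT and 16 FANKO samples by a two-sided permutation test, adjusted over 16 comparisons. In BAT the Cox7a1/Cox7a2 ratio was -0.29 ± 0.13 (SD) in WT and -1.27 ± 0.40 in FANKO samples, 1.96-fold lower (adjusted permutation p = 3.56e-05). The Cox8b/Cox8a ratio was 0.12 ± 0.15 in WT and -1.31 ± 0.44 in FANKO BAT, 2.69-fold lower with the same adjusted permutation p. The unadjusted p was 2e-05 for both, the smallest these permutations can give. Neither ratio overlapped between genotypes in BAT, and both differed at each of the 4 time points (exact permutation test of 4 against 4, p = 0.0286, the smallest possible). Per kilobase of annotated exon, the median level of Cox7a1 was 149% of that of Cox7a2 in WT BAT and 76.5% in FANKO BAT. For Cox8b against Cox8a the medians were 187% and 73.2%. In eWAT the muscle-type forms were the minor ones, at 3.22% and 3.83% for Cox7a1 and at 5.38% and 8.32% for Cox8b in WT and FANKO samples. There the Cox8b/Cox8a ratio rose by 0.68 ± 0.17 (SE; adjusted permutation p = 5.24e-04), and the Cox7a1/Cox7a2 ratio differed by 0.21 ± 0.12 (adjusted permutation p = 0.0876), or by 0.13 without replicate 1 and by 0.36 without replicate 3, where it passed (adjusted permutation p = 0.00793). In eWAT the Cox8b/Cox8a ratio did not differ at every time point, with exact permutation p of up to 0.743.

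The Cox7a2l/Cox7a2 ratio differed in both depots. It rose by 0.80 ± 0.06 (SE) in FANKO BAT without overlap, and fell by 0.39 in FANKO eWAT, where the groups overlapped (adjusted permutation p = 3.56e-05 for both). In eWAT this ratio did not differ at every time point, with exact permutation p of up to 0.257. Cox4i2, an isoform of the regulatory subunit 4 typical of lung and induced by low oxygen, was rare beside Cox4i1 in all groups. Cox4i2 ranged from 1.48 to 3.86 CPM (median 2.33) in WT BAT, 0.892 to 1.93 CPM (median 1.45) in FANKO BAT, 0.947 to 2.56 CPM (median 1.9) in WT eWAT and 1.32 to 3.09 CPM (median 2.27) in FANKO eWAT, with overlap between genotypes in both depots. Cox4i1 ranged from 1279 to 1714 CPM (median 1416) in WT BAT and 386 to 682 CPM (median 556) in FANKO BAT, and from 238 to 373 CPM (median 272) in WT eWAT and 463 to 616 CPM (median 523) in FANKO eWAT, without overlap in either depot. The Cox4i2/Cox4i1 ratio was 0.68 ± 0.13 (SE) higher in FANKO BAT and differed by -0.66 ± 0.11 in FANKO eWAT (adjusted permutation p = 6.40e-05 and 3.56e-05). In neither depot did it differ at every time point (exact permutation p of up to 0.143 in BAT and 0.4 in eWAT). Per kilobase Cox4i2 stood at a median of 0.33% of Cox4i1 in WT BAT and 1.34% in WT eWAT. Cox4i1 overlaps Emc8 on the other strand.

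**Figure D4:**
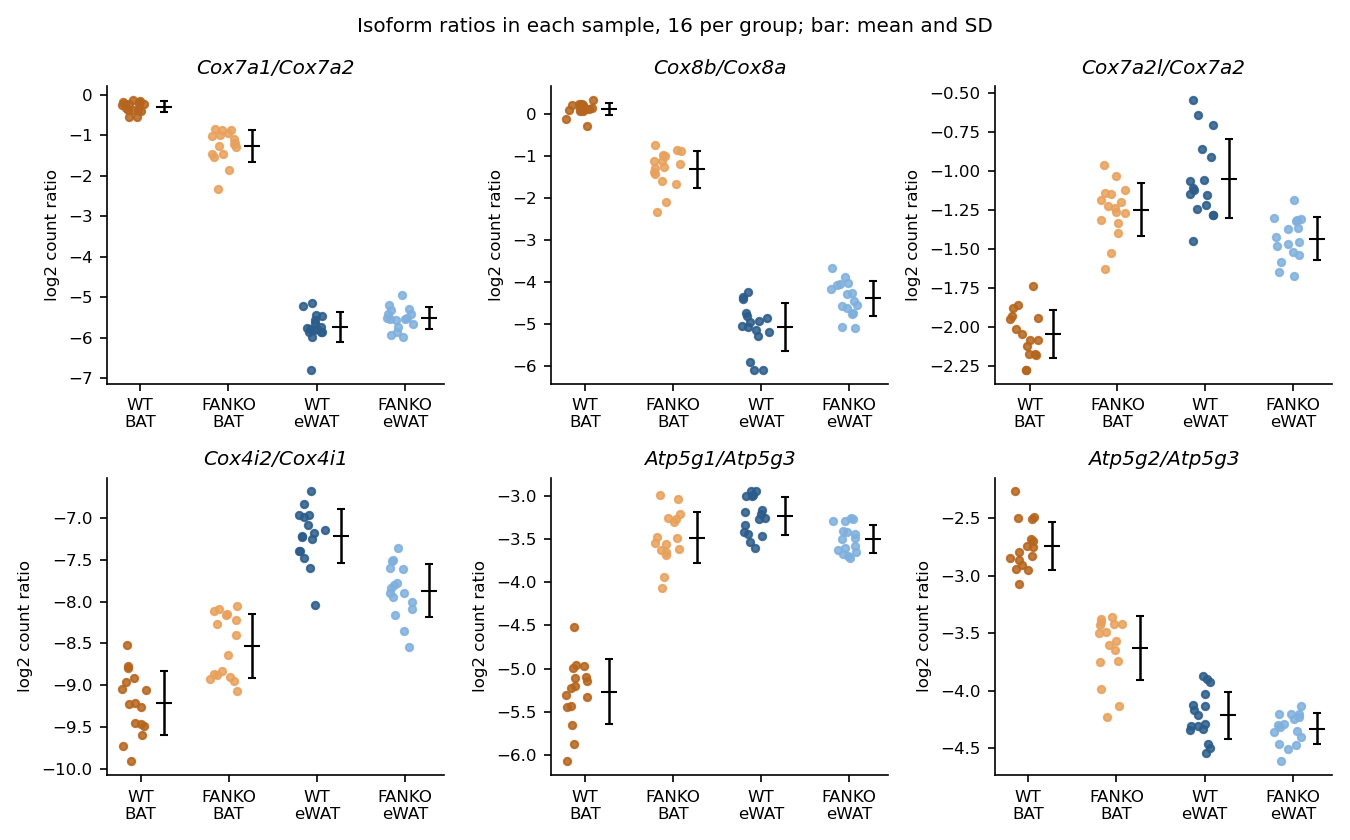
The log2 ratio of counts of 6 isoform pairs in each sample, 16 per depot and genotype, with the mean and SD as a bar beside the points. In BAT Cox7a1/Cox7a2, Cox8b/Cox8a and Atp5g2/Atp5g3 were lower in all FANKO samples, Cox7a2l/Cox7a2 and Atp5g1/Atp5g3 were higher in all of them, and Cox4i2/Cox4i1 overlapped.

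The remaining tissue-restricted complex IV isoforms were close to the detection limit. Cox6a2, the heart and muscle form of subunit 6a (chr7:128205435-128206387), had 16 counts over the 16 WT eWAT libraries (0 to 3 each) and 216 counts over the 16 FANKO eWAT libraries (6 to 30 each), with no overlap. Its log2 fold change of 3.81 ± 0.51 (adjusted p = 4.25e-09) was the largest rise in eWAT, at levels of 0 to 0.13 CPM (median 0.0569) in WT and 0.356 to 1.78 CPM (median 0.822) in FANKO mice. The skeletal muscle markers, summed over 12 genes with none at 0, ranged from 12.9 to 88.4 CPM in WT eWAT and from 28.8 to 117 CPM in FANKO eWAT, with medians of 21.5 and 55.2 CPM. They exceeded 20 CPM in 9 WT libraries, where Cox6a2 had 0 to 3 counts, and in all 16 FANKO libraries, and were lower in 7 WT libraries, where it had 0 to 2. Of the 12 markers 1 rose and 0 fell, with a median log2 fold change of -0.55. Their part in the rise of Cox6a2 was not tested.

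In BAT, Cox6a2 counts moved with muscle markers. In WT BAT it had 0 to 21 counts in the 9 libraries with muscle markers above 20 CPM and 0 to 2 in the other 7, and in FANKO BAT 11 to 28 counts in 5 libraries and 2 to 10 in the other 11. Over all libraries its log2 fold change was 0.58 ± 0.43 (adjusted p = 0.221). It was -0.14 without replicate 2 and 1.66 without replicate 1, neither past the test, and without the libraries that held muscle markers above 20 CPM in BAT and germ cell markers above 20 CPM in eWAT it was 4.80 (adjusted p = 7.32e-05). Cox6a1, its ubiquitous partner, ranged from 897 to 1356 CPM (median 1034) in WT BAT and 237 to 473 CPM (median 378) in FANKO BAT. It ranged from 98.6 to 173 CPM (median 127) in WT eWAT and 197 to 295 CPM (median 228) in FANKO eWAT, with no overlap between genotypes in either depot. The Cox6a2/Cox6a1 ratio was not tested, because Cox6a2 had a mean below 10 counts in both depots. Cox6a2 overlaps Itgad on the other strand.

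The testis forms were found in traces. Cox6b2 had 994 counts over the 64 libraries and ranged from 1.05 to 2.9 CPM (median 1.69) in WT BAT and 0.111 to 1.13 CPM (median 0.616) in FANKO BAT. In eWAT it ranged from 0.493 to 1.76 CPM (median 0.937) in WT and 0.237 to 1.51 CPM (median 0.815) in FANKO mice. Cox6b1, the ubiquitous form, ranged from 865 to 1127 CPM (median 964) and 245 to 467 CPM (median 362) in WT and FANKO BAT, and from 97.8 to 197 CPM (median 134) and 205 to 313 CPM (median 236) in eWAT. The Cox6b2/Cox6b1 ratio fell in FANKO eWAT by 1.06 (adjusted permutation p = 3.56e-05, overlapping groups) and differed by -0.06 ± 0.20 (SE) in BAT (adjusted permutation p = 0.759). In eWAT this ratio did not differ at every time point, with exact permutation p of up to 0.171. All 6 germ cell markers were called lower in FANKO eWAT (median log2 fold change -3.49), where 22.8% of all genes fell. Their part in the fall of this ratio was not tested. Cox7b2 had 52 counts and Cox8c 55 over all libraries, in 8 and 11 libraries, with 0 counts in every BAT library. Of these, 39 and 46 counts lay in the 5 eWAT libraries with germ cell markers above 20 CPM, and 34 and 35 in a single one, WT eWAT ZT 18 replicate 2, where those markers summed to 319.8 CPM. Cox7b, the ubiquitous partner of Cox7b2, ranged from 659 to 986 CPM (median 776) in WT BAT, 153 to 347 CPM (median 258) in FANKO BAT, 57.7 to 101 CPM (median 71.6) in WT eWAT and 119 to 187 CPM (median 149) in FANKO eWAT.

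The complex IV subunits without isoforms fell and rose together with the ubiquitous forms. Cox5a and Cox5b, Cox6c and Cox7c changed by -1.35 ± 0.08, -1.55 ± 0.09, -1.75 ± 0.08 and -1.41 ± 0.07 in BAT. In eWAT the changes of these 4 genes were 1.18 ± 0.08, 0.87 ± 0.09, 0.67 ± 0.08 and 0.80 ± 0.07. All 8 of these differences passed the test.

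The median fall of complex V in BAT was smaller than those of complexes III and IV (values above), a difference that was not tested, and its subunit c genes differed in direction. Subunit c forms the rotating ring of ATP synthase, and Atp5g1, Atp5g2 and Atp5g3 encode the same mature protein with different import sequences. Atp5g1 (ENSMUSG00000006057, chr11:96068852-96075670) ranged from 2.19 to 7.16 CPM (median 3.97) in WT BAT and from 9.05 to 19.9 CPM (median 12.6) in FANKO BAT, 3.33-fold higher (1.74 ± 0.10, adjusted p = 2.88e-24). Its eWAT levels ranged from 13.7 to 23.5 CPM (median 16.2) in WT and from 19 to 29.3 CPM (median 21.9) in FANKO mice, a rise of 0.40 ± 0.08 with overlapping groups that became 0.15 (adjusted p = 0.144) and lost its call with libraries scaled by size alone. Atp5g2 ranged from 17.9 to 27.6 CPM (median 22.2) in WT BAT and from 7.8 to 15.5 CPM (median 11.6) in FANKO BAT, a change of -0.94 ± 0.07. In eWAT Atp5g2 ranged from 7.09 to 10.8 CPM (median 8.32) in WT and from 10.1 to 14.3 CPM (median 12.5) in FANKO mice.

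Atp5g3, the most abundant of these genes in every group, did not pass the test between genotypes in BAT. It ranged from 125 to 179 CPM (median 152) in WT and from 109 to 170.4 CPM (median 151) in FANKO BAT, a difference of -0.07 ± 0.06 (adjusted p = 0.304) that became 0.51 (adjusted p = 2.48e-13) when libraries were scaled by size alone. In eWAT its levels ranged from 119.7 to 218 CPM (median 163) in WT and from 211 to 284 CPM (median 253) in FANKO mice, a rise of 0.65 ± 0.06. Relative to Atp5g3 in the same library, Atp5g1 was 3.46-fold higher and Atp5g2 was 1.85-fold lower in FANKO than in WT BAT, with no overlap for either (adjusted permutation p = 3.56e-05 for both). The Atp5g1/Atp5g2 ratio rose by 2.68 ± 0.14 (SE) in BAT. In eWAT the Atp5g1/Atp5g3 ratio differed by -0.26 ± 0.07 (adjusted permutation p = 0.00115), with exact permutation p of up to 0.257 at a time point. There the Atp5g2/Atp5g3 ratio differed by -0.12 ± 0.06 and the Atp5g1/Atp5g2 ratio by -0.15 ± 0.08 (adjusted permutation p = 0.0876 and 0.0993). The Atp5g2/Atp5g3 difference was -0.17 without replicate 3, where it passed (adjusted permutation p = 0.0305), and -0.047 without replicate 2. Per kilobase Atp5g1 stood at a median of 1.199% of Atp5g3 in WT and 3.88% in FANKO samples of BAT, and at 4.74% and 3.95% in those of eWAT. The annotated exons of Atp5g1 add up to 4912 bases, and its level per kilobase rests on that length. Reads shared between the 3 genes cannot be placed, and how the counting treated them is not given in the sources used here.

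Among the other complex V genes, all 14 fell in BAT and 13 rose in eWAT. The catalytic subunits alpha (Atp5a1) and beta (Atp5b) changed by -1.16 ± 0.07 and -1.36 ± 0.07 in BAT and by 0.85 ± 0.07 and 0.69 ± 0.07 in eWAT. Atp5b had the highest median CPM of all 45 genes in each depot and genotype, 6521 CPM in WT BAT against 2629 CPM in FANKO BAT. The largest fall was that of Atp5j2, subunit f of the membrane part (-1.65 ± 0.07), and the smallest that of Atp5j, coupling factor 6 (-0.83 ± 0.05), which overlaps Gabpa on the other strand. Atp5s ranged from 10.1 to 17.1 CPM (median 14.3) in WT and from 5.23 to 8.4 CPM (median 6.3) in FANKO BAT, a change of -1.07 ± 0.07 without overlap. The eWAT levels ranged from 5.06 to 8.65 CPM (median 6.48) in WT and from 4.68 to 7.53 CPM (median 6.55) in FANKO mice.

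Between the depots of WT mice, BAT held more transcript of nearly all of these genes. In WT mice 41 of 43 were higher in BAT, 1 was lower and 1 did not pass, while 32.7% of all genes were higher and 41.1% lower. The median log2 fold change of BAT against eWAT was 2.52 (5.75-fold), with 2.94 for complex III, 2.78 for complex IV and 2.23 for complex V. The largest differences were those of Cox7a1 (7.91 ± 0.17, 239.8-fold) and Cox8b (7.11 ± 0.20, 139-fold). Atp5g1 was 4.35-fold lower in BAT than in eWAT, and Atp5g3 did not pass (-0.09 ± 0.06, adjusted p = 0.191).

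In FANKO mice the depots lay much closer. There 26 of 43 genes were higher in BAT, 4 were lower and 13 did not pass, while 28.1% of all genes were higher and 31.6% lower. The median difference was 0.32, with 0.58 for complex III, 0.40 for complex IV and 0.18 for complex V. Cox7a1 (4.48 ± 0.15) and Cox8b (3.04 ± 0.16) still differed most. Cox4i2, Atp5g1, Atp5g3 and Atp5j were lower in FANKO BAT than in FANKO eWAT, by log2 fold changes of -0.65 ± 0.11, -0.78 ± 0.08, -0.81 ± 0.06 and -0.33 ± 0.05. Of all counts, the 45 genes made up a median of 2.36% in WT and 1.29% in FANKO libraries of BAT, and of 0.63% in WT and 0.91% in FANKO libraries of eWAT.

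Other genes of the respiratory chain, taken from lists written with earlier results of these data known, were mostly lower in FANKO BAT and higher in FANKO eWAT. The shares of all genes to set beside the counts of these and of the marker lists are 33.9% lower and 33.1% higher in BAT, and 22.8% lower and 27.6% higher in eWAT. In BAT all 4 complex II subunits fell (median -1.43), among them Sdha and Sdhb (-1.58 ± 0.07 and -1.53 ± 0.07), and in eWAT all 4 rose (median 0.74). Of 34 measured assembly factors of complexes III to V, 33 fell and 0 rose in BAT (median -0.97), and 30 rose and 0 fell in eWAT (median 0.42). Fmc1 and Lyrm7, which assist ATP synthase and complex III, had the largest falls in BAT (-1.66 ± 0.08 and -1.64 ± 0.10). Cox19 and Cox10, needed for copper and heme in complex IV, had the largest rises in eWAT (1.16 ± 0.06 and 0.95 ± 0.07). Of the partners encoded by the mitochondrial genome, 2 of 6 passed the filter. mt-Cytb and mt-Co1 fell in BAT (-2.20 ± 0.12 and -1.40 ± 0.09) and rose in eWAT (0.69 ± 0.12 and 0.78 ± 0.09). The other 4 had between 1 and 63 counts over all libraries, so they could not be compared. Over all libraries mt-Co1 had 23215259 counts and mt-Cytb 4018858. Whether the low counts of the other 4 come from the mapping or counting of reads was not tested.

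Among 17 regulators of mitochondrial biogenesis, 12 fell and 3 rose in BAT (33.9% and 33.1% of all genes), and 12 rose and 1 fell in eWAT (27.6% and 22.8% of all genes). The largest falls in BAT were those of the fatty acid receptor Ppara (-2.21 ± 0.16) and the coactivator Ppargc1b (-2.07 ± 0.12), and the largest rises those of the nuclear receptor Esrrb (1.15 ± 0.22) and the coactivator Pprc1 (1.11 ± 0.09). In eWAT the largest rises were those of Esrrb (1.73 ± 0.28) and Esrra (0.83 ± 0.08), and the 1 fall that of Pprc1 (-0.31 ± 0.08).

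Marker levels of other cells moved with genotype in BAT. The 8 macrophage markers, none at 0, summed to 93.9 to 177 CPM in WT BAT and 486 to 1213 CPM in FANKO BAT, and 7 rose and 1, Cd14, fell. The 9 adipocyte markers, none at 0, summed to 12056 to 15951 CPM in WT BAT and 5532 to 9624 CPM in FANKO BAT, and 8 fell, with a median of -0.74 against -1.37 for the subunit genes. In eWAT the adipocyte markers summed to 12698 to 21727 CPM in WT and 13450 to 19811 CPM in FANKO mice, with 2 rising and 5 falling, and the macrophage markers to 556 to 853 CPM and 533 to 907 CPM, with 2 rising and 1 falling. The part of cell makeup in the genotype differences was not tested.

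Within groups, the mean log2 CPM of the 43 genes was set against the log2 marker sums over 16 samples. The 8 relations are given as descriptions, without p values. Among FANKO BAT samples it rose with the adipocyte markers (Pearson r = 0.91, Spearman rho = 0.90) and was lower where macrophage markers were higher (r = -0.75, rho = -0.77). Without the 2 samples farthest from the median of the marker sum, r was 0.90 and -0.76. In WT BAT r was 0.45 and rho 0.36 for adipocyte markers, and r was 0.38 for macrophage markers and -0.30 without the 2 farthest samples. In eWAT r with the adipocyte markers was 0.69 in WT and 0.66 in FANKO samples, with rho of 0.56 and 0.71, and r was 0.46 and 0.56 without the 2 farthest samples. With the macrophage markers r was 0.22 and -0.37 in WT and FANKO eWAT. Each time point holds 4 samples of a group, too few for a value within it, and all values of a sample share the scaling of its library.

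Time of day gave no call in these genes. None of the 43 was called rhythmic in any group, while 13.9% of all genes were in WT and 2.84% in FANKO BAT, and 9.38% in WT and 6.77% in FANKO eWAT. The unadjusted p was below 0.05 in edgeR for 0, 1, 10 and 1 of the 43 genes in these 4 groups, in that order. Of all 20249 genes it was so for 6478, 4345, 5997 and 4956. The counts of the 43 were 1, 1, 11 and 1 in DESeq2 and 1, 4, 10 and 1 in limma-voom, and neither of these called any. The median range between the highest and the lowest time-point mean of log2 CPM was 0.16 in WT and 0.26 in FANKO mice for BAT, where that over all genes was 0.43 and 0.33. For eWAT it was 0.29 in WT and 0.16 in FANKO mice, where that over all genes was 0.37 and 0.35. In WT eWAT 39 of the 43 genes had their highest mean at ZT 18, with no share of all genes to set beside it. Genes of a library share its scaling, so these are not separate observations. The mean log2 CPM of the 43 genes at ZT 18 was 5.96, 5.64, 5.98 and 5.42 in replicates 1 to 4. The difference of rhythm between genotypes was called for 0 of 43 genes in each depot, against 2.76% of all genes in BAT and 1.15% in eWAT. There the unadjusted p was below 0.05 in edgeR for 0 of the 43 genes in both depots. Of all 20249 genes, 3891 in BAT and 3154 in eWAT had such a p. In DESeq2 it was so for 1 of the 43 in BAT and 0 in eWAT, and likewise in limma-voom.

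The smallest p of each rhythm test belonged to Atp5g1 in WT BAT, Cox7a2l in FANKO BAT, Atp5f1 in WT eWAT and Atp5s in FANKO eWAT (edgeR adjusted p = 0.184, 0.142, 0.0677 and 0.0952). Atp5f1, subunit b of the stator, had means of 139 ± 18.7, 141 ± 16.3, 172 ± 30.6 and 164 ± 23.8 CPM (SD, n = 4) at ZT 6, 10, 18 and 22 in WT eWAT. Cox7a2l had means of 81.9 ± 10.1, 92.0 ± 6.09, 103 ± 19.9 and 91.1 ± 17.7 CPM at these times in FANKO BAT. Atp5g1 in WT BAT had means of 3.40 ± 1.00, 4.22 ± 0.38, 4.60 ± 1.74 and 3.51 ± 0.62 CPM. Atp5s in FANKO eWAT had means of 6.11 ± 1.14, 7.31 ± 0.18, 6.27 ± 0.45 and 5.34 ± 1.01 CPM. The smallest p for a difference of rhythm between genotypes was that of Atp5s in BAT and Cycs in eWAT (edgeR adjusted p = 0.297 and 0.420).

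**Figure D5:**
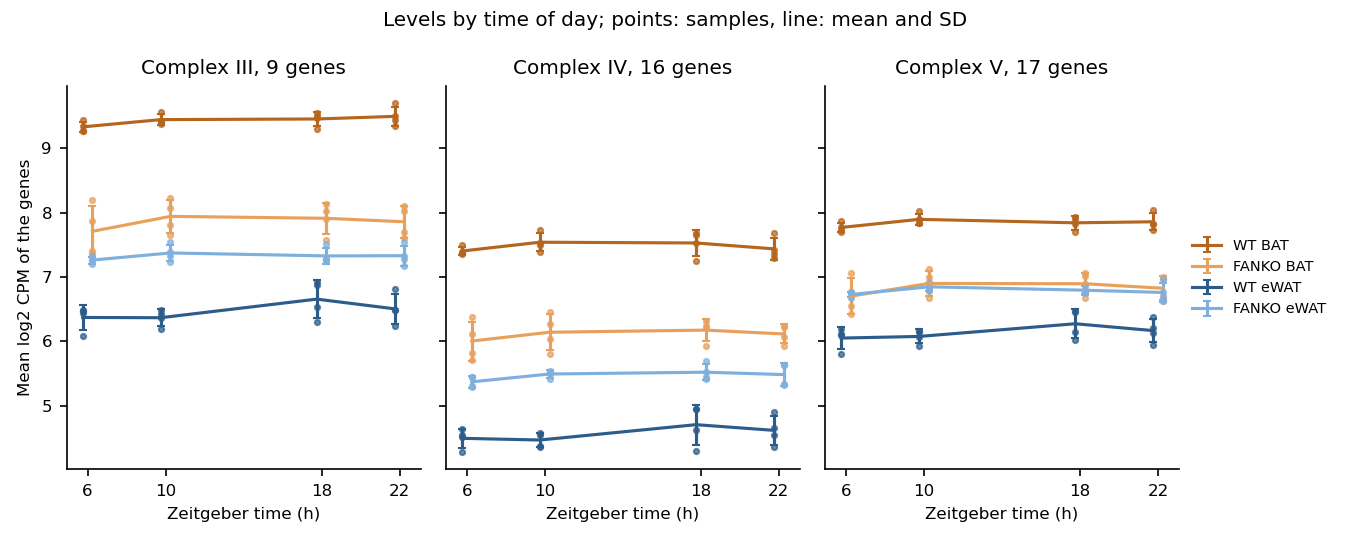
Mean log2 CPM of the tested genes of complex III (9), complex IV (16) and complex V (17) against zeitgeber time in hours, with points for samples and lines for the mean and SD of 4 samples. The order of WT BAT, FANKO BAT, FANKO eWAT and WT eWAT holds at each time point for complexes III and IV, while FANKO BAT and FANKO eWAT run together for complex V.

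Leaving out the BAT libraries with muscle markers and the eWAT libraries with germ cell markers above 20 CPM was a choice made after the data were seen. It removed 5 eWAT libraries and kept others with muscle markers above 20 CPM. In BAT 40 genes then fell and 2 rose, in eWAT 40 rose, and the interaction passed for 42 genes. The genotype medians were -1.30 and 0.80. Scaling by library size alone moved the median of all genes to 0.58 in BAT and -0.27 in eWAT. With it 38 genes fell and 2 rose in BAT, and 37 rose and 1 fell in eWAT. The shares of all genes called in either of these fits are not given here. In the main fit 33.9% of all genes fell and 33.1% rose in BAT. There 22.8% fell and 27.6% rose in eWAT, and 64.3% passed the interaction.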

How the data were processed

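Gene counts of 64 libraries were analysed as the authors deposited them, whole numbers of reads per gene with no normalization. Per the submitters' processing notes, STAR 2.5.3a, featureCounts 1.5.3, FastQC 0.11.5, MultiQC 1.2 and build GRCm38.p5 were used, after a stranded total RNA kit with ribosomal depletion. The strand and multiple mapping options of the counting are not given in the sources used here, so reads of overlapping genes and of pseudogenes may be shared.

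Of 52636 genes, 20249 passed edgeR's filterByExpr (minimum count 10, minimum total 15). One model (R 4.3.3, edgeR 4.0.16) was fitted to all samples with TMM scaling, in which each depot and genotype had a mean level and a 24 h cosine and sine term (12 coefficients). The quasi-likelihood test was adjusted by Benjamini-Hochberg over 20249 genes with a threshold of 0.01. The fit was tested on simulated data. Isoform ratios used log2 of counts plus 1, a two-sided permutation test with 100000 resamples (scipy 1.17.1), adjustment over 16 comparisons with a threshold of 0.05, exact tests of 4 against 4 at each time point, and genes with a mean of at least 10 counts. No 2 libraries of a group agreed within sampling noise (lowest chi-square per degree of freedom 6.22). Total counts of 6117343 to 30544847 per sample limit what can be said of genes with few counts.

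The genes, the lists and the tests were chosen with earlier results of these data known. Values over the samples are given for Cycs, Cyc1, the isoform families, the largest changes in each depot and the smallest p of each rhythm test, and at most 4 genes of each other list are named. Alternatives were RLE factors, library size alone, DESeq2 1.42.0, limma-voom (limma 3.58.1), other filters, thresholds and pseudocounts, removal of the genes of the mitochondrial genome, time as a factor, each depot alone, each replicate number left out, and replicate blocks. Leaving out BAT libraries with muscle markers and eWAT libraries with germ cell markers over 20 CPM was chosen after seeing the data. Replicate numbers are shared between groups, but the correlation of same-numbered samples did not exceed 0.1 in every pair. The numbers were therefore not used as pairs in the main tests, and whether the depots share animals is not known. The main tests thus leave out anything that samples of the same number share.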

Additional observations from a re-analysis of the deposited data

Results flagged for a closer look

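The genotype difference was not the same in BAT and eWAT. The interaction passed edgeR's test for all 43 genes, with a median of -2.27 on the log2 scale (BAT minus eWAT). Cox8b had the most negative value, -4.08, and Atp5g1 the only positive one, 1.34.

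In 4 of 144 groups of 4 samples checked, 1 sample lay far from the others by Dixon's criterion, and chance marks about 1 in 20 groups. The mean log2 CPM of the 43 genes was 5.27 in replicate 2 of WT eWAT at ZT 6, below the other 3 samples. The Cox7a2l/Cox7a2 log2 ratio was -1.43 in replicate 1 of FANKO eWAT at ZT 18. The Atp5g1/Atp5g3 log2 ratio was -3.49 in replicate 4 of FANKO eWAT at ZT 22. The Atp5g2/Atp5g3 log2 ratio was -2.79 in replicate 2 of WT BAT at ZT 22. Each of these values was the lowest of its group.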

How the results depend on the processing

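Over the alternatives, 39 to 42 genes passed in BAT, 38 to 41 in eWAT, 40 to 42 between the depots of WT mice, 28 to 35 between those of FANKO mice and 38 to 43 for the interaction, and 0 were called rhythmic in any group. A minimum count of 50 tested fewer of the 43 genes, so fewer could pass under it. It left 80 genotype differences over both depots, against 86 with RLE factors, and all 80 kept their call. Scaling by library size alone gave medians of -0.79 in BAT and 0.57 in eWAT, where the medians of all genes moved to 0.58 and -0.27. Under it Cox7a2l (0.090) and Atp5g3 (0.51) changed direction in BAT, Cox4i2 lost its call in BAT and Uqcr11, Atp5g1 and Atp5l theirs in eWAT, and Atp5s gained one in eWAT. These changes have the direction of the shift in all genes. Leaving out each replicate number in turn gave -0.16 to 0.012 for Cox6b2/Cox6b1 in BAT, which was 0.20 with a pseudocount of 5. It gave 0.13 to 0.36 for Cox7a1/Cox7a2 and -0.17 to -0.047 for Atp5g2/Atp5g3 in eWAT, both past the threshold without replicate 3. For Cox6a2 in BAT it gave -0.14 (without replicate 2) to 1.66 (without replicate 1), and the cause of these changes was not tested. With the replicate number as a block (replicate block) in the fit, 41 genes passed in BAT and 40 in eWAT. For the ratios, WT and FANKO samples were instead matched by number and the signs of their differences were permuted. Atp5g1/Atp5g2 in eWAT then passed (-0.15, adjusted permutation p = 0.0434), but the labels do not give such pairs. Without the libraries with other tissue markers Cox6a2 gained a call in BAT (4.80, edgeR adjusted p = 7.32e-05). At a threshold of 0.05 Cox4i2 passed in eWAT (edgeR adjusted p = 0.0363). No other call for a genotype difference of the 43 genes or of a ratio changed. The correlations of deviations of same-numbered samples ran from -0.21 to 0.45 between depots, with a median of 0.12 against -0.026 for other numbers. Of 32 samples, 19 correlated best with their own number. Between WT and FANKO samples, 10 of 16 did so in BAT and 10 of 16 in eWAT. The median correlations there were 0.11 and 0.15, against -0.036 and -0.041 for other numbers. What the numbers mark was not tested.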
